A study of Danio rerio with 15 samples.

Results

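Genes of fatty acid oxidation and of fatty acid and glycerolipid synthesis were followed across a PFOS dose series in zebrafish larvae. The set held 57 gene symbols, chosen by name with earlier results of these data known, and all were present in the gene table. They filled 58 of its 32520 rows, because mlxipl is listed under 2 gene identifiers. Of these rows, 38 belonged to the PPAR receptors, their targets and fatty acid oxidation, and 20 to lipogenesis, desaturation, elongation and glycerolipid assembly. A filter on low counts kept 56 of the 58 rows, 37 on the oxidation side and 19 on the synthesis side. The 2 rows that failed it were fabp1a, listed at 0 in 14 of 15 libraries, and the second mlxipl row (ENSDARG00000104054), at 0.202 to 0.686 CPM, the counts scaled to library size.

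PFOS (perfluorooctanesulfonic acid) is a persistent surfactant. Larvae of the AB wild-type strain were sampled whole at 120 hours post-fertilization after exposure to 0.1, 1, 5 or 10 µM PFOS or as controls, with 3 RNA-seq libraries in each of the 5 groups. The sources used here do not give the number of larvae in a library, the vehicle of the controls or the day exposure began. Library totals lay between 11956657 and 19978125 counts. Separate clutches are not named in the labels. Each p-value refers to the spread among libraries within a group, with 1 estimate of spread shared by all 5 groups. Part of that spread may be technical. The 10 µM columns are numbered 2, 3 and 4 and are named here by those numbers. At 5 µM library 3 stood apart from the other two: a chi-square of its counts against theirs came to 25.0 and 20.5 per gene, where the other pairs of libraries within a group gave 2.92 to 13.6. Calls and counts of the set at 5 µM that changed without it are given with and without it. Counts of marker lists were not refitted without it.

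In background, fatty acids reach β-oxidation as acyl-CoA esters: carnitine palmitoyltransferases carry them into mitochondria, acyl-CoA dehydrogenases, hydratases and thiolases shorten them, and electron transfer flavoprotein passes the electrons on. PPARs are nuclear receptors that bind fatty acids with RXR as partner and switch on many of these genes, and PFOS activates PPARα in rodents. Synthesis runs the other way, from acetyl-CoA through acetyl-CoA carboxylase and fatty acid synthase, under SREBP and ChREBP, and ends in triglyceride made by the DGAT enzymes. In a 120-hour larva the liver, gut, muscle and the last of the yolk all handle lipid, and whole-body RNA pools them. In such bulk samples, fewer cells of a type and less RNA per cell cannot be told apart.

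At 10 µM genes were called in both directions within both pathways. The calls of pdk2b, cpt1b, ucp1, pparda, acadvl and me1, all higher, held under every alternative tried. The other calls, pdk2a, acaa2 and acacb higher and pparaa, ehhadh and dgat1a lower, were each lost with at least 1 single library left out. Among the oxidation genes, pdk2b rose 3.60-fold, cpt1b 1.78-fold, ucp1 1.75-fold and pparda 1.64-fold over controls, while pparaa and the peroxisomal enzyme gene ehhadh fell. Among the synthesis genes, me1 rose 2.12-fold and acacb 1.39-fold, dgat1a fell, and fasn, acaca and srebf1 did not pass the test. In all, 12 of 56 genes passed, 9 higher and 3 lower, by edgeR's quasi-likelihood test with Benjamini-Hochberg adjustment over the 21477 genes tested and a threshold of 0.05. The background was 14.4% of all genes called at 10 µM against control, 7.78% higher and 6.65% lower, while the share of these 56 genes was 21.4%. Among genes with at least 5 CPM in at least 3 libraries, the shares were 18.8% of all genes and 24.1% of the set, 13 of 54. As the set was chosen with earlier results known, these shares are only described, and their difference was not tested.

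Genes moved in both directions on either side of the set; the difference between the sides was not tested. On the oxidation side 7 genes rose and 2 fell of 37, with a median log2 fold change of 0.047. On the synthesis side 2 rose and 1 fell of 19, with a median of 0.048. Over all genes tested the median was -0.007. In 16 of the 56 genes every 10 µM library lay above every control library, and in 7 every one lay below; over all genes this held for 18.6% and 18.3%. In the plot of fold changes by role, every role group but electron transfer has values on both sides of 0; the 3 electron transfer genes lay above 0, and none passed.

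**Figure D1:**
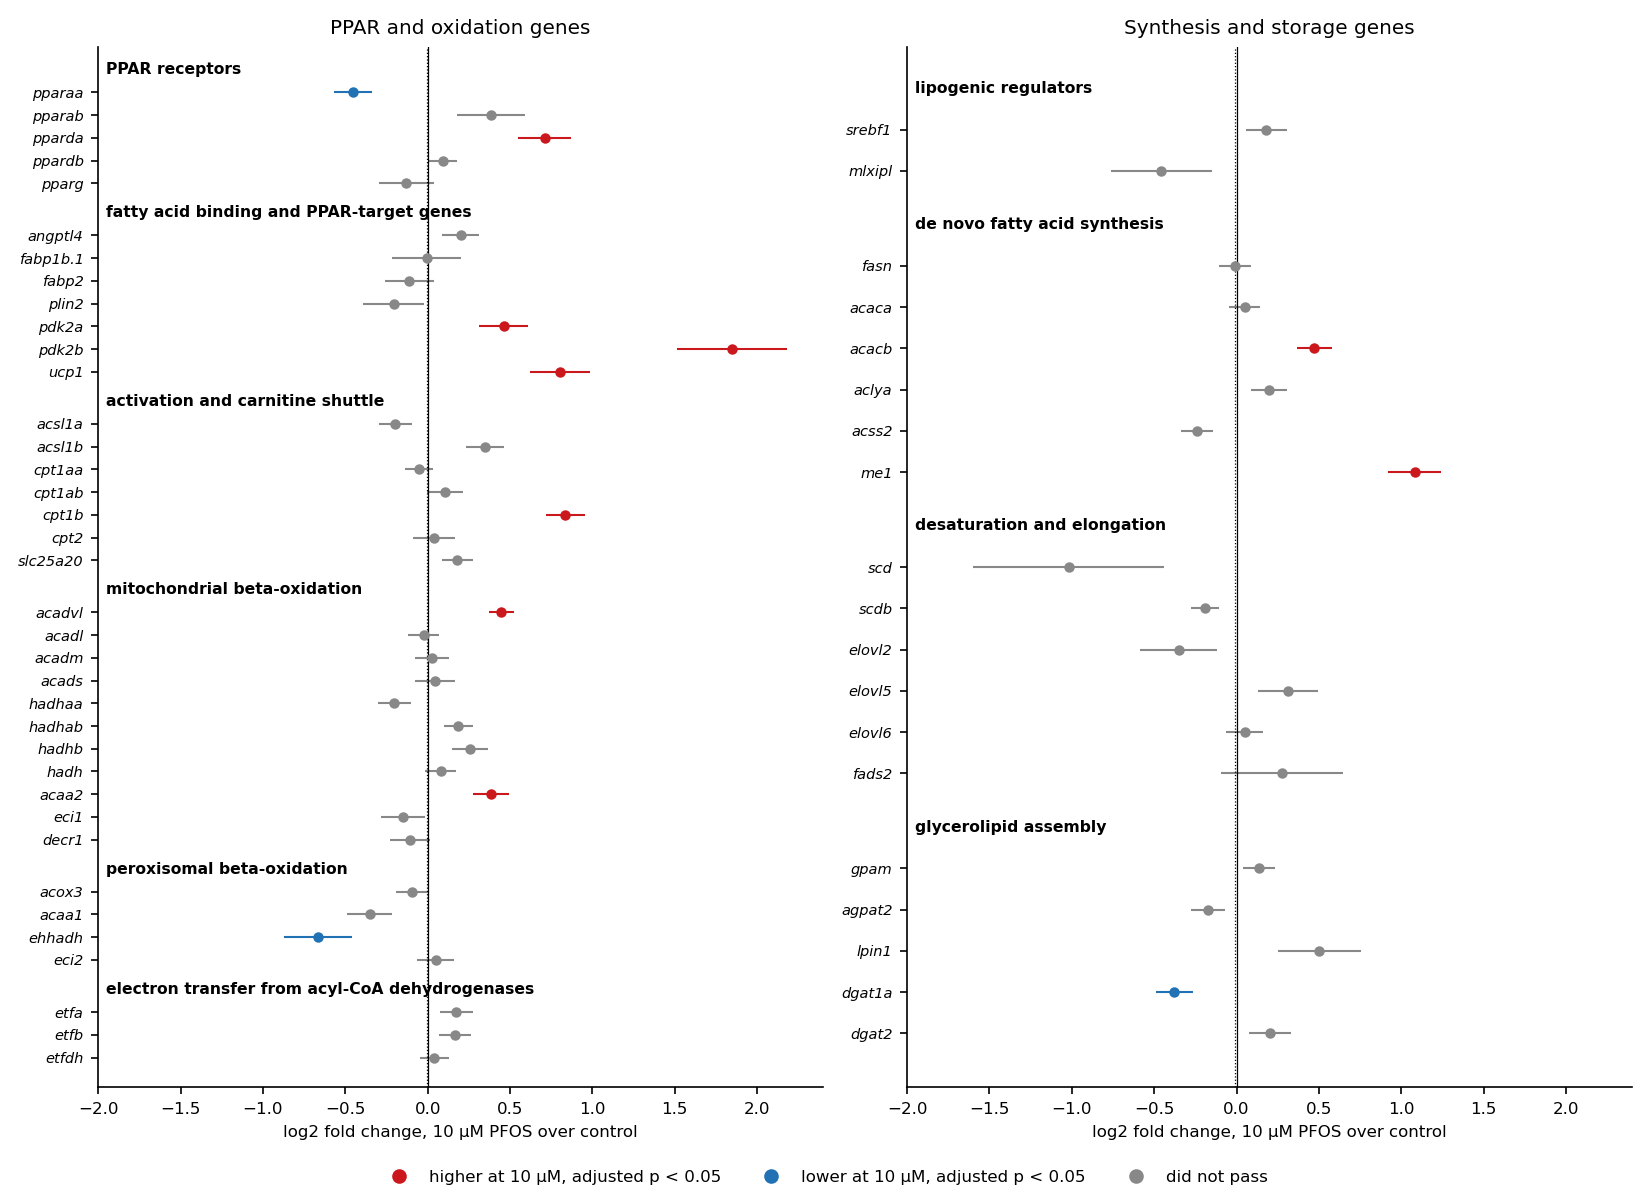
Log2 fold change of the 56 tested genes at 10 µM PFOS over control, by role, with bars for 1 standard error and a dotted line at the median of all genes (-0.007). The points past the threshold, 9 higher in red and 3 lower in blue, are spread over 7 of the 10 role groups, and pdk2b lies farthest to the right at 1.85.

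The summed level of the oxidation genes was 3870 to 4160 CPM in the 10 µM libraries, against 2878 to 3371 CPM in controls. Most of that gap lay in pdk2b and ucp1, a pair chosen after their values were seen. Without them the sum was 2709 to 2862 CPM at 10 µM, against 2372 to 2836 CPM in controls, which overlapped. By role, mitochondrial β-oxidation sums were apart, at 912 to 941 CPM at 10 µM and 761 to 875 CPM in controls. Activation and carnitine shuttle sums were apart too, at 377 to 406 CPM at 10 µM and 328 to 362 CPM in controls. Sums of PPAR receptor, peroxisomal and electron transfer genes overlapped. The synthesis genes summed to 1160 to 1229 CPM at 10 µM and to 982 to 1127 CPM in controls. That sum was not recomputed without its largest movers. It holds lpin1, which did not pass, at 300.5 to 322.5 CPM at 10 µM and 200.9 to 258.8 CPM in controls. By role, de novo synthesis and glycerolipid assembly sums were apart, while those of the regulators and of desaturation and elongation overlapped.

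Summed markers of hepatocytes, skeletal muscle, yolk syncytial layer and adipocytes lay apart from controls at 10 µM, while those of enterocytes and heart overlapped. The counts per list stand beside 7.78% of all genes higher and 6.65% lower. Of 15 hepatocyte marker genes, 4 were higher and 0 lower, and their summed level was 5197 to 5598 CPM at 10 µM, against 4296 to 4999 CPM in controls. Of 21 skeletal muscle genes, 0 were higher and 6 lower, with sums of 69920 to 73560 CPM at 10 µM and 82570 to 89460 CPM in controls. Of 13 enterocyte genes 2 were higher and 3 lower, and the sums overlapped, at 2096 to 2293 CPM at 10 µM and 2119 to 2552 CPM in controls. The other lists gave 2 higher and 1 lower of 8 yolk syncytial layer genes tested, 1 higher of 4 adipocyte genes tested and 1 higher of 10 heart genes. Yolk sums were 8424 to 8846 CPM at 10 µM, against 6504 to 7631 CPM in controls, and adipocyte sums 58.6 to 62.4 CPM at 10 µM, against 45.7 to 53.1 CPM in controls. Heart sums overlapped, at 399 to 435 CPM at 10 µM and 388 to 434 CPM in controls. No marker of these lists was at 0 in all libraries. The part of tissue makeup in the results below was not tested.

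Of the PPAR receptor genes, pparda rose and pparaa fell, and the other three did not pass. The gene pparda encodes a PPARδ, the subtype that in mammals drives fatty acid use in muscle (ENSDARG00000044525, chromosome 22, 997838 to 1018752, plus strand, in the coordinates of the files; the sources used here name no genome build). It had 8.94, 12.1 and 7.47 CPM at 10 µM, against 5.71, 6.08 and 5.62 CPM in controls. Every 10 µM library lay above every other library of the series: pparda had 5.56, 5.38 and 5.35 CPM at 0.1 µM, 6.98, 5.89 and 5.85 CPM at 1 µM and 6.25, 6.05 and 5.40 CPM at 5 µM. Its log2 fold change at 10 µM over control was 0.71 ± 0.16 (SE, n = 3 each, adjusted p = 0.00982).

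The gene pparaa encodes a PPARα, the subtype best known from liver (ENSDARG00000031777, chromosome 4, 18609539 to 18635005, minus strand). It had 12.7, 10.6 and 10.9 CPM at 10 µM, against 14.5, 17.0 and 15.3 CPM in controls. The lower doses stayed within or near the control range, with 14.6, 17.1 and 14.2 CPM at 0.1 µM, 16.5, 16.2 and 15.5 CPM at 1 µM and 15.8, 14.04 and 17.1 CPM at 5 µM. The 10 µM libraries were the lowest of the series, and the log2 fold change over control was -0.45 ± 0.12 (SE, adjusted p = 0.0174). That call was lost without control library 2 or without 10 µM library 3 or 4, with an adjusted p of up to 0.0691.

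Its paralogue pparab had 7.17, 7.28 and 6.03 CPM at 10 µM, against 5.17, 4.74 and 5.77 CPM in controls. The groups did not overlap, but the gene did not pass (log2 fold change 0.38 ± 0.20, SE, adjusted p = 0.225), and libraries at 0.1 µM reached 6.81, 6.67 and 4.06 CPM. At 1 and 5 µM pparab had 5.35, 5.73 and 5.52 CPM and 4.16, 6.44 and 4.25 CPM. The second PPARδ gene, ppardb, was flat, with 38.0, 35.6 and 36.0 CPM at 10 µM and 34.5, 36.2 and 32.3 CPM in controls. Its other libraries had 35.0, 38.3 and 35.3 CPM at 0.1 µM, 36.8, 35.2 and 32.1 CPM at 1 µM and 36.0, 37.0 and 31.4 CPM at 5 µM. For pparg, the receptor of fat cell differentiation, the values were 14.1, 11.97 and 10.8 CPM at 10 µM and 15.7, 13.2 and 11.4 CPM in controls. Its lower doses had 11.2, 12.8 and 12.6 CPM at 0.1 µM, 12.9, 13.9 and 13.8 CPM at 1 µM and 10.4, 13.97 and 17.7 CPM at 5 µM. The groups overlapped for ppardb and pparg, whose 95% intervals of the log2 fold change ran from -0.09 to 0.27 and from -0.49 to 0.23.

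Per length, in CPM per kilobase, the order of the receptors in controls was ppardb at 17.2 ± 0.99, pparg at 15.1 ± 2.42, pparaa at 9.17 ± 0.74, pparab at 4.18 ± 0.41 and pparda at 3.92 ± 0.16 (mean ± SD, n = 3). The first pair and the last pair lay within their spread. At 10 µM pparaa and pparda met, at 6.71 ± 0.69 and 6.42 ± 1.61 CPM per kilobase, and pparab stood at 5.45 ± 0.55. The length behind these levels is the one implied by the deposited counts and RPKM, and across libraries it moved by a factor of up to 1.22, for ppardb. Reads from paralogues of this kind could be divided by the counting in a way that cannot be checked here.

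Among the partners and coactivators of PPARs, a list of 14 genes, rxrab rose and rxraa fell, and the others did not pass. This count of 1 higher and 1 lower stands beside 7.78% of all genes higher and 6.65% lower. Neither call was tried with a library left out. The retinoid X receptor gene rxrab averaged 4.23 ± 0.25 CPM at 10 µM and 2.27 ± 0.52 CPM in controls (SD, n = 3 each), which is 0.90 ± 0.28 as a log2 fold change (SE, adjusted p = 0.0458). Its relative rxraa averaged 11.8 ± 0.95 CPM at 10 µM and 16.0 ± 1.35 CPM in controls, which is -0.44 ± 0.12 on the same scale (SE, adjusted p = 0.0255).

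**Figure D2:**
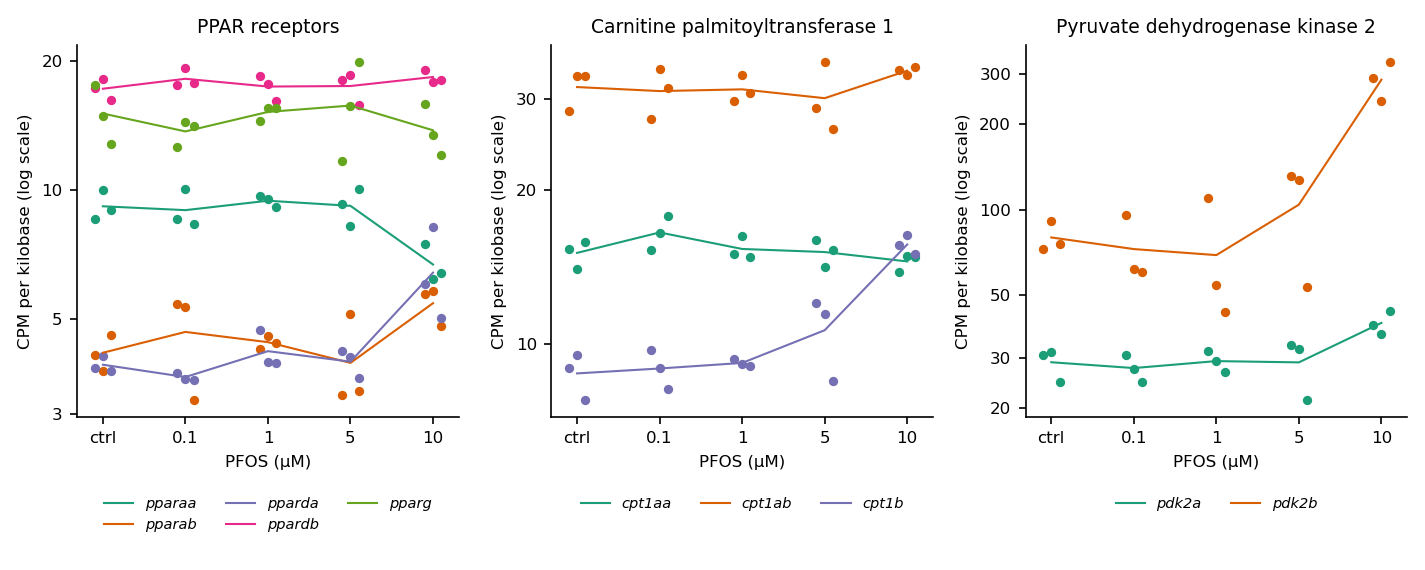
Level per length, in CPM per kilobase on a log axis, in the 15 libraries by PFOS dose, for the PPAR, carnitine palmitoyltransferase 1 and pyruvate dehydrogenase kinase 2 genes; points are libraries and lines join group means. At 10 µM pparda stands at 6.42 beside pparaa at 6.71, cpt1b at 15.6 beside cpt1aa at 14.5, and pdk2b at 288.

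The group of fatty acid binding proteins and known PPAR targets moved in 3 of its 7 tested genes, all of them energy-metabolism genes: pdk2b, pdk2a and ucp1. Pyruvate dehydrogenase kinases shut pyruvate out of the citric acid cycle, which favours fatty acids as fuel. The gene pdk2b (ENSDARG00000059054, chromosome 19, 5674907 to 5687743, plus strand) had 570.3, 473 and 649.7 CPM at 10 µM, against 142, 179 and 149 CPM in controls. Lower doses spread widely, with 188, 122 and 119 CPM at 0.1 µM, 215, 107 and 85.4 CPM at 1 µM and 259, 250.2 and 105 CPM at 5 µM. In these 3 groups the library numbered 1 was the highest, yet all were far below the lowest 10 µM library. Over control, the log2 fold change of pdk2b was 1.85 ± 0.33 (SE, adjusted p = 0.0031), the largest of all 56 genes.

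Its paralogue pdk2a (ENSDARG00000020876, chromosome 12) had 136, 127 and 153 CPM at 10 µM, against 107, 109 and 86.1 CPM in controls. At the lower doses it had 107, 95.05 and 86.1 CPM at 0.1 µM, 111, 101 and 93.1 CPM at 1 µM and 116, 112 and 74.2 CPM at 5 µM. Again the 10 µM libraries were the highest of the series, but the change was small (log2 fold change 0.46 ± 0.15, SE, adjusted p = 0.0478), and leaving out any 1 of the 6 libraries compared ended the call (adjusted p of up to 0.193). Per length, pdk2b stood at 288 ± 45.0 and pdk2a at 39.9 ± 3.77 CPM per kilobase at 10 µM, against 79.9 ± 10.1 and 29.0 ± 3.66 in controls (SD, n = 3 each).

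Uncoupling protein 1 is the heat-producing proton carrier of brown fat in mammals; fish carry the gene without brown fat. The gene ucp1 (ENSDARG00000023151, chromosome 1, 53374454 to 53388914, plus strand) had 591, 674 and 648 CPM at 10 µM, against 383, 356 and 357 CPM in controls. At 0.1, 1 and 5 µM the values were 439, 308 and 341 CPM, 470.3, 370.1 and 278 CPM, and 548, 539.8 and 362 CPM. The libraries numbered 1 were again the highest of their groups, and 5 µM libraries 1 and 2 lay between controls and 10 µM. Over control, the log2 fold change of ucp1 was 0.80 ± 0.18 (SE, adjusted p = 0.00959); at 10 over 5 µM it was 0.40 ± 0.18 (SE, adjusted p = 0.143).

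The other tested genes of the fatty acid binding and PPAR-target group, angptl4, plin2, fabp1b.1 and fabp2, did not pass. Angiopoietin-like 4, an inhibitor of lipoprotein lipase encoded by angptl4, had 146, 159 and 183 CPM at 10 µM, against 142, 162 and 121 CPM in controls. The groups overlapped, and the log2 fold change was 0.20 ± 0.11 (SE, adjusted p = 0.245). At 0.1, 1 and 5 µM angptl4 had 134, 146 and 120.0 CPM, 127, 121 and 114 CPM, and 146, 144 and 137 CPM. The lipid droplet coat gene plin2 had 4.83, 9.15 and 7.25 CPM at 10 µM and 8.06, 8.08 and 8.39 CPM in controls, so that the 10 µM libraries lay on both sides of the controls. Its lower doses had 8.46, 6.89 and 6.70 CPM at 0.1 µM, 7.72, 8.75 and 7.26 CPM at 1 µM and 6.54, 8.07 and 7.83 CPM at 5 µM. Liver-type and intestinal fatty acid binding protein genes, fabp1b.1 and fabp2, had log2 fold changes of -0.01 and -0.11 at 10 µM over control (adjusted p = 0.987 and 0.664).

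Entry into mitochondria changed at 1 of 3 paralogues. In mammals CPT1B is the muscle isoform of carnitine palmitoyltransferase 1, the gate of β-oxidation. The gene cpt1b (ENSDARG00000058285, chromosome 18, 8340886 to 8367566, plus strand) had 42.0, 43.9 and 40.4 CPM at 10 µM, against 24.2, 25.6 and 20.9 CPM in controls. It had 26.2, 24.2 and 22.0 CPM at 0.1 µM, 25.2, 24.6 and 24.4 CPM at 1 µM and 32.3, 30.8 and 22.8 CPM at 5 µM. All 10 µM libraries were above all other libraries, and 2 of 3 at 5 µM were above all controls. Its log2 fold change over control was 0.83 ± 0.12 (SE, adjusted p = 0.000768), the lowest adjusted p of the set. As given above, skeletal muscle marker sums were lower at 10 µM and heart marker sums overlapped with controls. The part of tissue makeup in the rise of cpt1b was not tested. An unnamed gene, BX276107.1, shares 5803 bases with cpt1b on the same strand at a mean of 2.46 CPM, and its log2 fold change was 0.15.

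The liver-type paralogues did not pass. For cpt1aa the values were 35.2, 37.9 and 37.6 CPM at 10 µM and 39.0, 35.7 and 40.3 CPM in controls, with a 95% interval of the log2 fold change from -0.24 to 0.13. For cpt1ab they were 118, 116 and 120.2 CPM at 10 µM and 98.7, 115 and 115 CPM in controls, with an interval from -0.13 to 0.34. The cpt1aa groups overlapped, while the cpt1ab groups were apart by less than the spread among controls. At 0.1, 1 and 5 µM cpt1aa had 38.9, 41.9 and 45.3 CPM, 38.2, 41.3 and 37.6 CPM, and 40.7, 35.9 and 38.9 CPM. At the same doses cpt1ab had 94.99, 119 and 109 CPM, 103, 116 and 107 CPM, and 99.7, 122 and 90.7 CPM. Per length, cpt1ab was the highest in controls at 31.7 ± 2.76 CPM per kilobase, ahead of cpt1aa at 15.04 ± 0.94 and cpt1b at 8.76 ± 0.89. At 10 µM cpt1b reached 15.6 ± 0.64 CPM per kilobase, beside cpt1aa at 14.5 ± 0.58 and cpt1ab at 34.1 ± 0.65 (SD, n = 3).

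The rest of the shuttle, cpt2, the carnitine carrier gene slc25a20 and the acyl-CoA synthetase genes acsl1a and acsl1b, did not pass. The closest was acsl1b, with 75.8, 83.3 and 71.2 CPM at 10 µM, against 55.8, 67.3 and 57.6 CPM in controls, without overlap (log2 fold change 0.35 ± 0.12, SE, adjusted p = 0.0539).

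In the mitochondrial spiral, 2 of 11 genes rose and none fell: the first enzyme for long chains, acadvl, and the last thiolase, acaa2. Very-long-chain acyl-CoA dehydrogenase, from acadvl (ENSDARG00000016687, chromosome 7, 20298333 to 20333524, plus strand), had 236, 225 and 238 CPM at 10 µM, against 176, 178 and 159 CPM in controls. Its lower doses were tight, with 179, 179 and 173 CPM at 0.1 µM, 178, 186 and 171 CPM at 1 µM and 182, 190.0 and 168 CPM at 5 µM. The 10 µM libraries stood clear of all others, and the log2 fold change over control was 0.45 ± 0.08 (SE, adjusted p = 0.00241).

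The thiolase gene acaa2 (ENSDARG00000038881, chromosome 8) had 79.0, 76.7 and 75.0 CPM at 10 µM, against 61.5, 63.7 and 51.5 CPM in controls. At 0.1 µM it had 50.3, 70.1 and 61.8 CPM, at 1 µM 53.8, 57.4 and 58.6 CPM and at 5 µM 65.6, 74.7 and 69.2 CPM. The 5 µM libraries also lay above all controls. Its log2 fold change at 10 µM over control was 0.38 ± 0.11 (SE, adjusted p = 0.0299), and the call was lost without control library 1 or 3 or without any 1 of the 10 µM libraries (adjusted p of up to 0.135).

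Of the other 9 genes of the spiral, acadl, acadm, acads, hadh, eci1 and decr1 had log2 fold changes between -0.15 and 0.08, with overlapping groups. The trifunctional protein genes leaned apart: hadhab was at 0.19 and hadhb at 0.26, both with all 10 µM libraries above all controls, and hadhaa was at -0.20 with all below, and none passed (adjusted p = 0.18, 0.135 and 0.184). The ends of hadhaa and hadhb overlap by 478 bases on opposite strands, and the sources used here do not say whether the counting used strand. None of the electron transfer genes etfa, etfb and etfdh passed. The smallest p among them was that of etfa, with 113, 105 and 122 CPM at 10 µM and 91.8, 116 and 93.2 CPM in controls, overlapping (log2 fold change 0.17 ± 0.10, SE, adjusted p = 0.27). At 0.1, 1 and 5 µM etfa had 99.9, 109.5 and 92.3 CPM, 97.9, 106 and 106 CPM, and 111, 102 and 96.9 CPM.

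Peroxisomal β-oxidation, which starts on very long chains, went down in 1 of 4 genes. The bifunctional enzyme gene ehhadh (ENSDARG00000070029, chromosome 9, 12428226 to 12443726, minus strand), a strong PPARα target in rodents, had 9.75, 15.2 and 10.2 CPM at 10 µM, against 19.8, 21.2 and 14.9 CPM in controls. Here the groups overlapped, as 10 µM library 3 lay above control library 3. At 0.1 µM ehhadh had 17.8, 21.2 and 13.7 CPM, at 1 µM 17.8, 19.0 and 19.6 CPM and at 5 µM 19.8, 12.3 and 16.7 CPM. For ehhadh the log2 fold change over control was -0.67 ± 0.20 (SE, adjusted p = 0.0412), lost without control library 1 or 2 or without 10 µM library 2 or 4 (adjusted p of up to 0.174).

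The peroxisomal thiolase gene acaa1 had 23.5, 22.6 and 23.5 CPM at 10 µM, against 34.5, 29.6 and 24.9 CPM in controls, below all of them but not past the threshold (log2 fold change -0.35 ± 0.14, SE, adjusted p = 0.0993). The acyl-CoA oxidase gene acox3 and the isomerase gene eci2 had log2 fold changes of -0.10 and 0.05. In a wider list of 30 peroxisome genes, 3 rose and 2 fell, beside 7.78% of all genes higher and 6.65% lower. Of these 30 log2 fold changes 15 were positive and 15 negative, with a median of 0.004. Catalase, from cat, averaged 84.8 ± 7.53 CPM at 10 µM and 116 ± 7.53 CPM in controls (SD, n = 3 each; log2 fold change -0.45 ± 0.11, SE, adjusted p = 0.0127). The import factor genes pex26 and pex5 rose, and crot, for carnitine octanoyltransferase, fell (log2 fold changes 0.71, 0.32 and -0.37).

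On the synthesis side the regulators did not pass. The SREBP-1 gene srebf1 had 38.8, 39.6 and 34.2 CPM at 10 µM and 36.7, 32.9 and 29.8 CPM in controls, overlapping (log2 fold change 0.18 ± 0.12, SE, adjusted p = 0.354). Its lower doses had 37.3, 31.3 and 34.0 CPM at 0.1 µM, 37.0, 32.4 and 38.8 CPM at 1 µM and 27.8, 39.2 and 36.2 CPM at 5 µM. The tested mlxipl row (ENSDARG00000089107), for ChREBP, was at 1.17 to 1.93 CPM at 10 µM and 1.82 to 2.27 CPM in controls, close to the floor of what was tested.

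Of the de novo synthesis genes, me1 and acacb rose, and fasn, acaca, aclya and acss2 did not pass. Malic enzyme, from me1, makes the NADPH that fatty acid synthase uses (ENSDARG00000053215, chromosome 16, 32832213 to 33001153, minus strand). It had 22.4, 22.9 and 20.5 CPM at 10 µM, against 9.36, 13.0 and 8.69 CPM in controls. Its lower doses had 13.4, 10.6 and 9.41 CPM at 0.1 µM, 13.7, 17.7 and 15.4 CPM at 1 µM and 17.8, 14.7 and 14.6 CPM at 5 µM: every 1 µM and 5 µM library lay above every control and below every 10 µM library. At 10 µM over control its log2 fold change was 1.08 ± 0.16 (SE, adjusted p = 0.000964). Within its span lie prss35 on the opposite strand, at a mean of 38.3 CPM and a log2 fold change of -0.55, and MCHR2 on the same strand, at 0.855 CPM.

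Acetyl-CoA carboxylase 2, whose malonyl-CoA restrains CPT1 at the mitochondrion in mammals, is encoded by acacb (ENSDARG00000061994, chromosome 5, 19337108 to 19383694, plus strand). It had 169, 184 and 172 CPM at 10 µM, against 129, 138 and 111 CPM in controls. At the lower doses it had 144, 133 and 121 CPM at 0.1 µM, 154, 130.2 and 126 CPM at 1 µM and 137, 144 and 122 CPM at 5 µM. The 10 µM libraries were the highest of the series. For acacb the log2 fold change was 0.47 ± 0.11 (SE, adjusted p = 0.00911), and without control library 3 the adjusted p was 0.0533.

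Acetyl-CoA carboxylase 1, from acaca, which supplies malonyl-CoA for synthesis, had 94.7, 97.8 and 79.4 CPM at 10 µM and 93.2, 86.5 and 83.4 CPM in controls. Its other libraries had 100.1, 84.3 and 90.2 CPM at 0.1 µM, 99.8, 89.4 and 84.2 CPM at 1 µM and 87.4, 89.5 and 86.8 CPM at 5 µM. Fatty acid synthase, from fasn, had 126, 118 and 106 CPM at 10 µM and 122, 121 and 109.6 CPM in controls. At 0.1, 1 and 5 µM fasn had 138, 124 and 113 CPM, 134, 114 and 115 CPM, and 116, 110.3 and 114 CPM. Both genes overlapped between 10 µM and control, and the 95% intervals of their log2 fold changes were -0.16 to 0.25 for acaca and -0.21 to 0.19 for fasn. The sign of either value changed under some alternatives, given in the closing part. Per length, acacb stood at 23.1 ± 1.07 and acaca at 11.8 ± 1.28 CPM per kilobase at 10 µM, against 16.7 ± 1.80 and 11.4 ± 0.65 in controls (SD, n = 3 each). The acetate-activating gene acss2 lay below all controls at 10 µM, at 50.8, 51.5 and 52.7 CPM against 61.5, 55.6 and 66.1 CPM in controls, without passing (adjusted p = 0.11).

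In glycerolipid assembly dgat1a fell. Diacylglycerol acyltransferase 1 makes the last bond of triglyceride; its gene dgat1a (ENSDARG00000103503, chromosome 19, 1370504 to 1393308, plus strand) had 18.1, 19.2 and 19.6 CPM at 10 µM, against 24.7, 24.9 and 24.4 CPM in controls. It had 21.2, 28.1 and 25.3 CPM at 0.1 µM, 22.1, 27.3 and 25.2 CPM at 1 µM and 23.2, 21.1 and 26.2 CPM at 5 µM. No other library was as low as those at 10 µM. For dgat1a the log2 fold change was -0.38 ± 0.11 (SE, adjusted p = 0.0374), but leaving out any 1 of the 6 libraries compared ended the call (adjusted p of up to 0.137).

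The unrelated enzyme gene dgat2 was at 53.9, 51.9 and 49.8 CPM at 10 µM, against 49.4, 42.6 and 43.3 CPM in controls, above all of them but not past the threshold (adjusted p = 0.317). The phosphatidate phosphatase gene lpin1 had 314, 322 and 300.5 CPM at 10 µM, against 259, 201 and 201 CPM in controls, and did not pass either (log2 fold change 0.50 ± 0.25, SE, adjusted p = 0.197). Its library numbered 1 was also high at every lower dose, at 319.7 CPM at 0.1 µM, 322 CPM at 1 µM and 363 CPM at 5 µM, where the other libraries lay between 174 and 234 CPM. The acyltransferase genes gpam and agpat2 had log2 fold changes of 0.13 and -0.17.

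**Figure D3:**
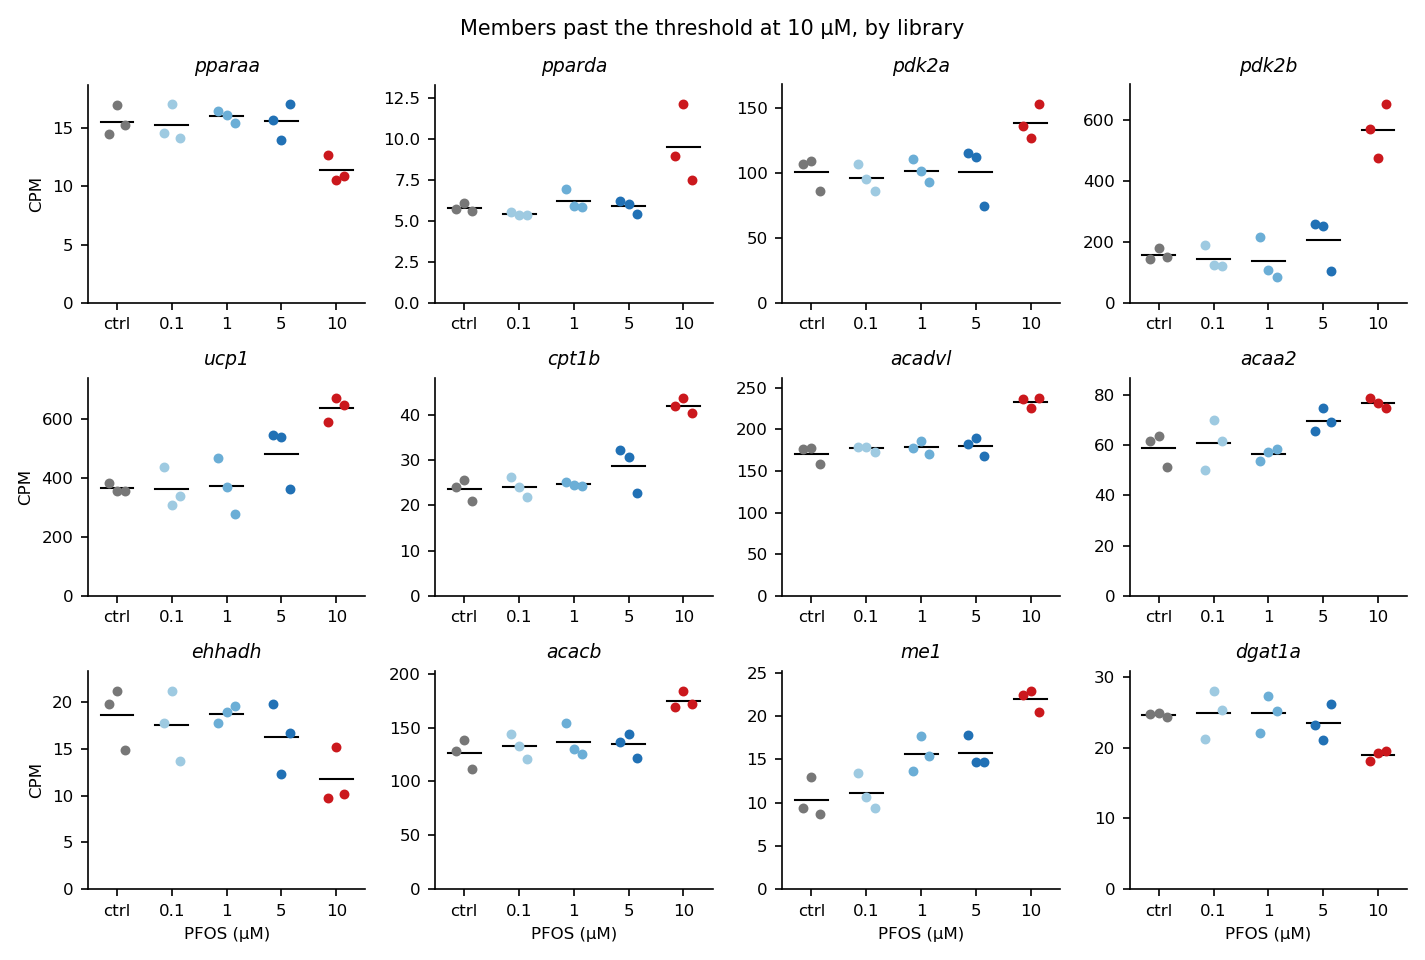
CPM, on axes from 0, of the 12 genes past the threshold at 10 µM over control, by library and PFOS dose; points are libraries and bars group means. The 10 µM libraries of acadvl, at 225 to 238 CPM, stand apart from a level series with 159 to 178 CPM in controls. At lower doses, where no gene passed, every library of me1 at 1 and 5 µM and of acaa2 at 5 µM lies above all controls. Some but not all libraries of a group do so elsewhere, among them those of pdk2b, ucp1, cpt1b and acadvl at 0.1 and 5 µM. At 0.1 µM me1 library 1 (13.4 CPM) and acaa2 library 2 (70.1 CPM) do so too. The ucp1 mean at 5 µM is 483 CPM, between 365 CPM in controls and 638 CPM at 10 µM.

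Below 10 µM no gene of the set passed, as no gene of the whole table did: the background was 0% at 5, 1 and 0.1 µM against control. These comparisons and that at 10 µM share the control libraries. At an unadjusted p under 0.05, 8 of the 56 genes were counted at 5 µM, or 14.3%, against 3.9% of all genes. Without 5 µM library 3 it was 6 of 56, and the share of all genes in that fit was not counted. At 1 µM 1 gene was counted, against 1.96%, and at 0.1 µM 1 gene, against 1.13%. The smallest p values at 5 µM were those of elovl2 (log2 fold change 0.97 ± 0.22, SE, adjusted p = 0.823), fads2 (1.48 ± 0.36, adjusted p = 0.971) and me1 (0.60 ± 0.16, adjusted p = 0.999). DESeq2 called 1 gene of the set at 5 µM, elovl2, at an adjusted p of 0.0457, and 0 at 1 and 0.1 µM. The share of all genes that DESeq2 called at 5 µM was not counted, so no background stands beside that call. At 1 µM the smallest p values belonged to me1, angptl4 and acox3, with log2 fold changes of 0.59, -0.23 and 0.18, and at 0.1 µM to hadhaa, cpt1aa and hadh, with -0.24, 0.13 and -0.14, all at an adjusted p of 1.00.

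Some desaturation and elongation genes parted between 10 and 5 µM. Of the 6 in the set none passed at 10 µM over control, against 14.4% of all genes, and 4 passed at 10 over 5 µM, against 15.4%. In the second comparison scdb, elovl2 and fads2 were lower and elovl5 was higher. The calls of scdb, elovl5 and fads2 were lost without 5 µM library 3, while that of elovl2 held. Zebrafish fads2 encodes a desaturase that acts on both steps of making long polyunsaturated fatty acids, and elovl2 and elovl5 encode the elongases of the same route. The gene fads2 (ENSDARG00000019532, chromosome 25, 4133488 to 4148719, minus strand) had 18.2, 22.0 and 19.2 CPM at 10 µM, against 53.5, 26.2 and 56.7 CPM at 5 µM. Controls had 22.8, 18.7 and 7.67 CPM, 0.1 µM libraries 15.8, 11.8 and 7.63 CPM and 1 µM libraries 18.0, 25.9 and 11.5 CPM. All 3 libraries at 5 µM thus lay above every other library, with library 2 only just so. At 10 over 5 µM the log2 fold change of fads2 was -1.20 ± 0.36 (SE, adjusted p = 0.0337), lost without 5 µM library 1 or 3 or without any 1 of the 10 µM libraries (adjusted p of up to 0.125).

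The elongase gene elovl2 (ENSDARG00000045414, chromosome 24, 8861272 to 8887825, minus strand) had 11.8, 11.1 and 10.8 CPM at 10 µM, against 33.6, 18.0 and 32.5 CPM at 5 µM. Controls had 15.4, 13.6 and 13.9 CPM, 0.1 µM libraries 14.97, 16.3 and 11.9 CPM and 1 µM libraries 17.5, 19.98 and 10.6 CPM. At 5 µM libraries 1 and 3 stood highest, as for fads2, and the 10 µM libraries lay below every control. The log2 fold change at 10 over 5 µM was -1.32 ± 0.23 (SE, adjusted p = 0.00253), which held without any 1 library.

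In the same 5 µM libraries 1, 2 and 3 the enterocyte markers summed to 3277, 2411 and 2943 CPM and the intestinal gene fabp2 had 556, 354 and 547 CPM, in the same order of high and low as elovl2 and fads2 up to the rank of libraries 1 and 3. Other lists set 5 µM library 3 apart: hepatocyte markers summed to 5051, 5139 and 3310 CPM in libraries 1, 2 and 3, and yolk syncytial layer markers to 8285, 7565 and 5225 CPM. Heart markers summed to 467, 430 and 337 CPM and adipocyte markers to 53.5, 58.4 and 47.0 CPM, also lowest in library 3. Skeletal muscle markers did not set library 3 apart, at 94430, 82690 and 85130 CPM. Like enterocyte markers, they were highest in library 1 and lowest in library 2. At 10 µM the enterocyte sums were 2096, 2293 and 2229 CPM, and 5 of the 13 enterocyte genes were lower at 10 than at 5 µM and 0 higher. Of all genes, 7.34% were lower and 8.06% higher in that comparison. Other lists shifted too: 6 of 21 skeletal muscle genes were lower and 0 higher, and 5 of 15 hepatocyte genes were higher and 0 lower. Yolk syncytial layer genes gave 2 higher and 1 lower of 8 tested. These list counts were not refitted without 5 µM library 3. The part of tissue makeup in the difference was not tested.

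The stearoyl-CoA desaturase gene scdb (ENSDARG00000030265, chromosome 13) had 57.9, 59.8 and 66.4 CPM at 10 µM, against 75.2, 75.0 and 83.4 CPM at 5 µM. Controls were at 71.7, 65.7 and 72.8 CPM, below all 5 µM libraries and overlapping those at 10 µM, and the other doses had 70.2, 67.0 and 75.5 CPM at 0.1 µM and 66.0, 72.7 and 71.2 CPM at 1 µM. The log2 fold change at 10 over 5 µM was -0.34 ± 0.08 (SE, adjusted p = 0.0135), lost without 5 µM library 3 or 10 µM library 2 and with only the groups compared in the fit. The other copy, scd, was near the floor, at up to 1.32 CPM in any library. In the opposite direction, elovl5 (ENSDARG00000004979, chromosome 13) had 14.2, 8.68 and 10.5 CPM at 10 µM, against 7.29, 7.22 and 5.53 CPM at 5 µM. Controls of elovl5 had 8.44, 10.6 and 7.74 CPM, 0.1 µM libraries 9.52, 7.82 and 7.57 CPM and 1 µM libraries 7.94, 9.53 and 9.73 CPM, so that the 5 µM libraries were the lowest of the series. The log2 fold change was 0.74 ± 0.19 (SE, adjusted p = 0.0164), lost under the same 3 settings. The saturated-chain elongase gene elovl6 was at 0.05 over control and 0.10 over 5 µM.

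**Figure D4:**
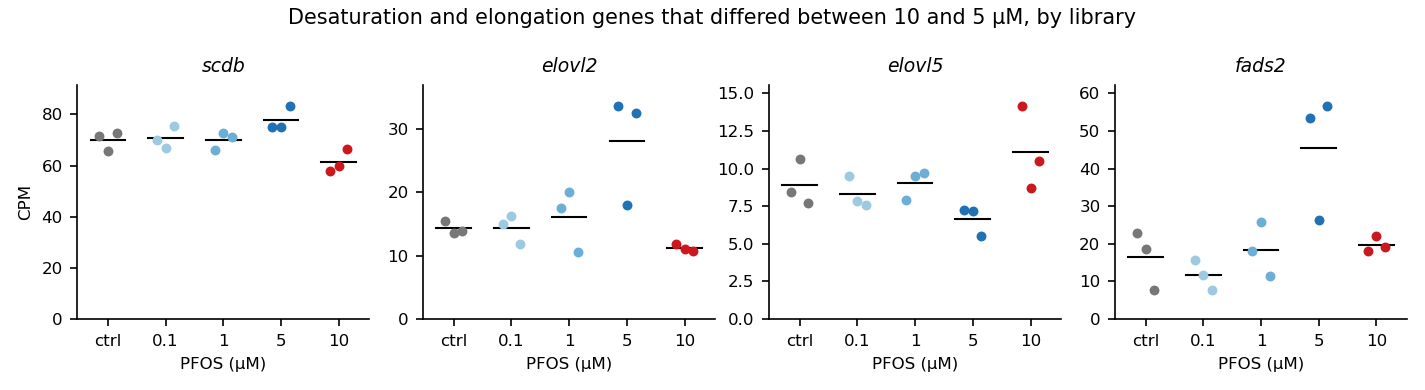
CPM, on axes from 0, of the desaturase and elongase genes that passed at 10 over 5 µM, by library and PFOS dose; points are libraries and bars group means. For elovl2 and fads2 the 5 µM group is the highest, with its library 2 at 18.0 and 26.2 CPM below libraries 1 and 3, and for elovl5 it is the lowest, at 5.53 to 7.29 CPM.

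Over the whole set, 13 of 56 genes passed at 10 over 5 µM, 8 higher and 5 lower, where the background was 15.4% of all genes, 8.06% higher and 7.34% lower. Beside the 4 above, 7 genes higher at 10 than at 5 µM were pparda, pdk2a, pdk2b, cpt1b, acadvl, acacb and me1, with log2 fold changes of 0.37 (acadvl) to 1.46 (pdk2b), and pparaa was lower at -0.46. Of these calls, pdk2b, cpt1b and acadvl held under all 12 alternatives. Without 5 µM library 3, me1, pdk2a, acacb and pparaa lost theirs, and each also lost it under other alternatives (adjusted p of up to 0.149, 0.172, 0.101 and 0.0729), while pparda lost its call with only the groups compared (adjusted p = 0.0591). The peroxisomal thiolase gene acaa1 (ENSDARG00000004687, chromosome 24) was the last of the 13, with 23.5, 22.6 and 23.5 CPM at 10 µM, against 36.8, 29.3 and 38.4 CPM at 5 µM. Its 0.1 µM libraries had 25.1, 36.0 and 29.6 CPM and its 1 µM libraries 33.4, 32.1 and 33.0 CPM, all above those at 10 µM. The log2 fold change was -0.59 ± 0.14 (SE, adjusted p = 0.0113; 0.0506 without 5 µM library 3). Without 5 µM library 3 the count was 5 of 56, or 8.93%, against 7.25% of all genes in the same fit. Without 10 µM library 2 it was 7, or 12.5% against 5.04%, and without 10 µM library 4 it was 8, or 14.3% against 8.4%. With the 4 doses tested against control together, 10 genes passed, against a background of 7.9%: pparaa, pparda, pdk2b, ucp1, cpt1b, acadvl, acacb, me1, elovl2 and fads2.

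At the level of single transcripts, 91 of the 136 annotated for these genes could be tested, and 7 were higher and 1 lower at 10 µM over control, against a background of 6.25% of all transcripts, 3.11% higher and 3.13% lower. Very-long-chain acyl-CoA dehydrogenase counts were split between acadvl-201 (54.1% of the gene's counts) and acadvl-202 (45.9%). Of these, acadvl-201 rose, at 138 ± 10.2 CPM at 10 µM and 89.4 ± 9.58 CPM in controls (log2 fold change 0.63 ± 0.13, SE, adjusted p = 0.0189), while acadvl-202 had 94.9 ± 4.79 CPM at 10 µM and 81.7 ± 7.75 CPM in controls (log2 fold change 0.22 ± 0.13, SE, adjusted p = 0.341); whether they differ was not tested. For cpt1b, pdk2b and me1 a single transcript held 99.6%, 98.8% and 93.9% of the counts.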

How the data were processed

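Whole-larva RNA was sequenced by the submitters, who deposited 1 table of genes and 1 of transcripts. Per the file headers, each holds read counts and RPKM; the sources used here name no aligner, counter, genome build or use of strand. The deposited counts are whole numbers, but a gene equals its summed transcripts in 96.8% of values, and both were handled as estimated counts. The deposited RPKM of 12 libraries served only to work out the length each gene was divided by (median over libraries), which turns CPM into CPM per kilobase for levels between genes. Another 48 per-sample columns were not used, among them all TPM and the 10 µM RPKM.

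Counts were fitted with edgeR 4.0.16 (R 4.3.3): filterByExpr, TMM scaling, 1 model of 5 group means over all 15 libraries, quasi-likelihood tests, two-sided, with Benjamini-Hochberg adjustment over all 21477 genes tested and a threshold of 0.05. CPM are counts scaled to the TMM-adjusted library size; SE is the log2 fold change divided by the root of F, and intervals are 95%. Transcript counts were tested the same way. The steps were tested on simulated data. Control totals were 13447347 to 15076888 counts and 10 µM totals 11956657 to 12858343, and the coefficient of variation between libraries was 13.0%. No replicate pair was within counting noise. DESeq2 1.42.0 was an alternative.

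Genes given in every library were those past the threshold in a comparison, 13 listed members, and the gene of smallest p where a role group had none; of other lists, up to 4 by smallest p; those outside this rule (acsl1b, hadhab, hadhb, acss2, dgat2, lpin1, fabp2 and prss35 among them) were chosen after their values were seen. The members, gene lists and markers were chosen with earlier results of these data known. Same-numbered libraries of the control, 0.1 and 1 µM groups deviated together (correlations of 0.19 to 0.45), so their numbers pair them. Columns of 10 µM carry other numbers than the titles and were not paired. One gene of the peroxisome list is not reported here.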

Additional observations from a re-analysis of the deposited data

How the results depend on the processing

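At 10 µM over control, the calls of pparda, pdk2b, ucp1, cpt1b, acadvl and me1 held under all 12 alternatives (size factors, filters, DESeq2, only the groups compared, a length trend removed, and each library left out); the other 6 called genes each lost theirs under at least 1 omission. Leaving out 1 library gave 7 to 9 called genes in place of 12. The 7 came without 10 µM library 4, or 12.5% against 7.14% of all genes. The 9 came without control library 2, or 16.1% against 10.7%. Over all genes the calls ranged from 1047 (without 10 µM library 2) to 2560 (without 10 µM library 3) in place of 3098. Of the set, 8 genes were called in either of these 2 fits. For 10 over 5 µM, leaving out 1 library gave 5 (8.93% against 7.25% of all genes) to 16 (28.6% against 13.9%) in place of 13. With only the groups compared it was 7, or 12.7% against 8.71% of all genes. For the test over all doses, leaving out 1 library gave 3 (without 10 µM library 2) to 12 in place of 10. The share of all genes in those fits was not counted. Median log2 fold changes were 0.022 to 0.13 (without control library 2) for oxidation genes and 0.012 to 0.136 for synthesis genes, and 0.138 for synthesis genes with a stricter filter of 5 CPM in 3 libraries. DESeq2 called 1 gene of the set at 5 µM in place of 0. Called transcripts numbered 5 with no filter and 1 to 5 without 1 library, in place of 8. For these DESeq2 and transcript fits the share over all genes or transcripts was not counted.

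At 10 µM over control, signs turned in genes that did not pass there: leaving out 1 library, fads2 lay between -0.065 and 0.578, plin2 between -0.434 and 0.005, acaca between -0.01 and 0.136 and fasn between -0.069 and 0.058; fasn was at 0.061 with the length trend removed. The causes of these shifts were not tested. Fits with 1 library left out also rest on fewer libraries. With the replicate number as a block over the control, 0.1 and 1 µM groups, chosen after seeing the data, 0 genes of the set were called at 1 and 0.1 µM, as without it. With 5 µM added the block also gave 0, which says little: 5 µM library 1 went with control library 1 (correlation 0.35), but library 2 went with control library 3 (0.28; with its own number -0.14) and library 3 with control library 2 (0.22; own number -0.0017). No paired analysis was possible at 10 µM because the column numbers do not match the titles. Depth limits the low genes most, as fabp1a, scd and both mlxipl rows were near 0.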

Other observations

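Lists of related lipid genes, not members of the set, gave these counts at 10 µM over control. Of 16 lipolysis and lipid droplet genes tested, 4 rose and 0 fell, with a median log2 fold change of 0.32. The droplet-fusion gene cidec averaged 7.83 ± 0.57 CPM at 10 µM and 3.03 ± 0.85 CPM in controls (SD, n = 3 each). Its log2 fold change was 1.36 ± 0.23 (SE, adjusted p = 0.00196), and it is also the gene that rose on the adipocyte list. The lipase inhibitor gene g0s2 averaged 4.35 ± 0.95 CPM at 10 µM and 1.35 ± 0.99 CPM in controls (log2 fold change 1.66 ± 0.38, SE, adjusted p = 0.011). The other risers of the lipolysis and lipid droplet list were lipg and pnpla3, at 0.82 and 0.69.

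Other lipogenesis and SREBP genes rose in 8 and fell in 2 of 33, with a median of 0.25. By smallest p these were acss1, the mitochondrial acetyl-CoA synthetase gene (0.50 ± 0.08, adjusted p = 0.00192), the citrate carrier gene slc25a1b (0.75 ± 0.13, adjusted p = 0.00265), elovl7b (1.63 ± 0.30, adjusted p = 0.0032) and hsd17b12a (1.24 ± 0.24, adjusted p = 0.0043), all as log2 fold changes with SE. Of 23 uptake, acyl-CoA synthetase and carrier genes 5 rose and 1 fell, with slc27a1b at 0.59 and acsbg1 at 0.73 higher and the brain-type fabp7a lower at -0.49. The liver-type fabp10a, also on the hepatocyte list, was at 0.65. Of 16 other glycerolipid genes 4 rose and 0 fell, plpp2a, mogat3a, agpat4 and agpat5. Of 11 ketone body and propionate genes only mlycd, whose enzyme breaks down malonyl-CoA, passed, at 0.46 ± 0.12 (SE, adjusted p = 0.0227). The background for these counts is the 7.78% of genes higher and 6.65% lower, and the medians stand beside -0.007 for all genes.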
